A study of Mus musculus with 6 samples.

Results

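The genes described here are 9 receptors of the tumour necrosis factor (TNF) receptor family: Tnfrsf9, Tnfrsf4, Tnfrsf18, Tnfrsf1a, Tnfrsf1b, Tnfrsf14, Tnfrsf25, Cd27 and Ltbr. They were taken by symbol from the 50686 genes of the deposited count table, each symbol matched 1 gene, and all 9 passed the filter that left 15458 genes for testing. The Eumyc group holds 3 libraries of natural killer (NK) cells from spleens of C57BL/6J mice that had been given Eumyc lymphoma intravenously and were taken 14 days later. The WT group holds 3 libraries of splenic NK cells from healthy, wild-type C57BL/6J mice. Eumyc lymphoma is a B cell tumour driven by the Myc oncogene, and it was carried by the inoculated cells, not by the germline of the hosts. Spleen cells of both groups were depleted of B cells, enriched with CD49b beads and sorted as NK1.1 positive and TCRb negative, and in the Eumyc group the cells that had not bound the beads were sorted too, so this step and the lymphoma cannot be told apart. The labels give no age or sex, and nothing in them ties the samples to separate animals, so p-values reflect the variation among these 6 libraries, which may be technical.

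TNF receptors are membrane proteins that bind trimeric ligands of the TNF family on neighbouring cells. Those without a death domain recruit TRAF adaptor proteins and switch on NF-kB, which in lymphocytes supports survival, division and cytokine release. Tnfrsf9 (4-1BB), Tnfrsf4 (OX40), Tnfrsf18 (GITR) and Cd27 are costimulatory receptors of T and NK cells. Tnfrsf9 and Tnfrsf4 are known as receptors that activation induces. Tnfrsf1a and Tnfrsf25 (DR3) carry a death domain, while Tnfrsf1b is the TNF receptor without one that predominates on lymphocytes. Ltbr, the lymphotoxin beta receptor, is known from stromal and myeloid cells, and lymphocytes mostly carry its ligands instead.

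Of the 9 receptor genes 3 rose (Ltbr, Tnfrsf9 and Tnfrsf1b), 2 fell (Cd27 and Tnfrsf4) and 4 did not pass the test (Tnfrsf18, Tnfrsf1a, Tnfrsf14 and Tnfrsf25). A gene was called at a Benjamini-Hochberg adjusted p under 0.05 in edgeR's quasi-likelihood test over all 15458 genes. In that test 48.8% of all genes were called, 25.7% higher and 23.1% lower in Eumyc, so the share of receptors called lies close to that of all genes. Levels are given as CPM, the usual depth-scaled unit of counts, after TMM scaling for the make-up of each library. Eumyc and WT had separate CPM ranges for 6 receptors, 3 higher and 3 lower in Eumyc, and for 60.2% of all tested genes, 31.3% higher and 28.9% lower. The median log2 fold change was 0.11 over the receptors and -0.005 over all tested genes. The receptors thus moved in both directions, and their sizes differed widely, from a 5.10-fold higher level of Ltbr to a 0.738-fold level of Tnfrsf4.

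**Figure D1:**
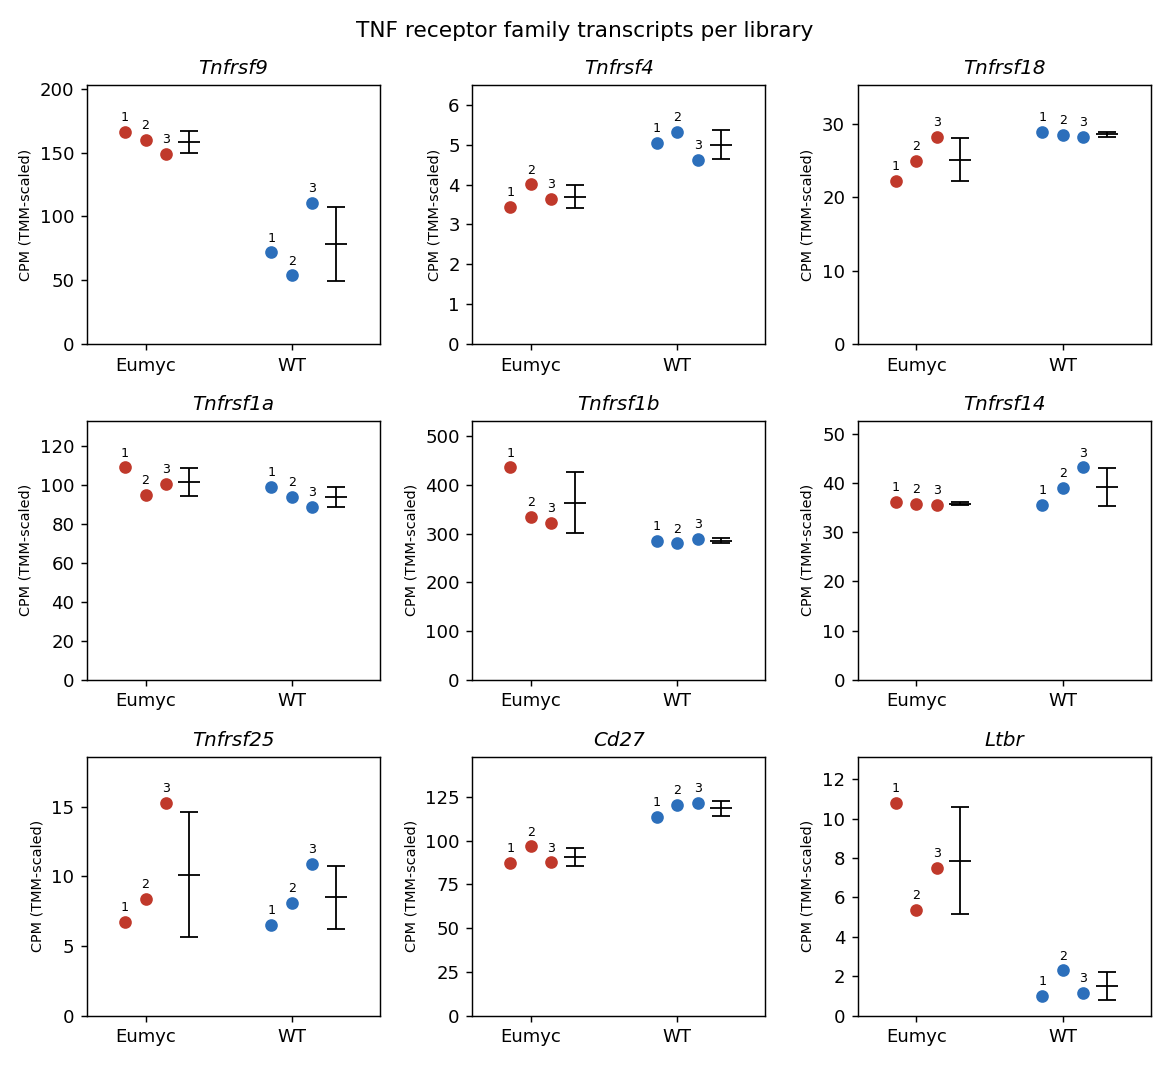
CPM (TMM-scaled) of the 9 receptor genes in each library, with Eumyc left and WT right; points are libraries with their replicate number, and the bars beside them give the mean and SD of 3 libraries. Tnfrsf9, Tnfrsf1b and Ltbr are higher in every Eumyc library than in every WT library, Cd27 and Tnfrsf4 lower, and WT 3 holds the highest WT level of Tnfrsf9 at 110.3 CPM.

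Stretches upstream of the transcription starts are shown for the 2 receptor genes with the largest rise and for Cd27, the more firmly lower of the 2 that fell, so that the letters behind these genes can be read beside their values. They are RefSeq sequences of the GRCm38.p6 build, 5′ to 3′ on the strand of the gene. Capitals mark the NF-kB consensus or the E-box letters CACGTG. For Tnfrsf9, which has 2 RefSeq starts, 30 bases before the downstream start are shown (chr4:150927949-150927978, plus strand), from 50 to 21 bases before it. This start lies inside the annotated span of the gene, and 81 of the 250 bases before it overlap annotated exons. The stretches of Ltbr (chr6:125313886-125314135, minus strand) and Cd27 (chr6:125237028-125237277, minus strand) are the 250 bases before the start.
Tnfrsf9: agcagctGGGGATTTCCCaggaggccctgc
Ltbr: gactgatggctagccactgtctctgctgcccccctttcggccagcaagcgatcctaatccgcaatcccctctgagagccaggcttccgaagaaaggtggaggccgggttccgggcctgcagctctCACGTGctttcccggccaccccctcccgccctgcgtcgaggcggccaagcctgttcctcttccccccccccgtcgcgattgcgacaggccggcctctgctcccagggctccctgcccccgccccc
Cd27: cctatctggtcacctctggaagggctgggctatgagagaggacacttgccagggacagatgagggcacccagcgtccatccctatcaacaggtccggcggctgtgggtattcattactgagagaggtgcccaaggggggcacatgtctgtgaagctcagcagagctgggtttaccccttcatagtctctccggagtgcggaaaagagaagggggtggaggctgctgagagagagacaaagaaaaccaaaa

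The 250 bases before each of the 11 RefSeq starts of the 9 genes were searched on both strands for 6 motifs: the NF-kB consensus, TGANTCA (an AP-1 site), CACGTG (an E-box), TTCNNNGAA (a STAT site), TGTGGT (a RUNX site) and GGGCGG (a GC box). The NF-kB consensus occurred at 1 of the 11 starts, the downstream start of Tnfrsf9, as 2 overlapping matches, and in 3.90% of all 32851 promoter windows of that length. TGANTCA occurred at the same start, 15 to 9 bases before it, and in 6.75% of all windows. CACGTG occurred at 2 starts, those of Ltbr and Tnfrsf4, and in 6.02% of all windows. TTCNNNGAA occurred at 5 starts, 1 each of 5 genes (Tnfrsf9, Tnfrsf18, Tnfrsf1a, Tnfrsf1b and Tnfrsf25) and in 7.02% of all windows. TGTGGT occurred at 1 start (14.0% of all windows) and GGGCGG at 3 (32.7%). The window of Cd27 held none of the 6. A match describes letters only, and the counts do not show which start of Tnfrsf9 was used. The 6 motifs were chosen after these windows had been searched, so the shares beside all windows are no test of the receptors.

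Tnfrsf9, the activation-induced receptor 4-1BB, had 166, 159.9 and 149 CPM in the 3 Eumyc libraries, against 71.7, 53.8 and 110.3 CPM in the 3 WT libraries. Every Eumyc library lay above every WT library, and WT 3 was the highest of its group. The means were 158.5 ± 8.68 CPM in Eumyc and 78.6 ± 28.9 CPM in WT (SD, n = 3 each). Tnfrsf9 was 2.03-fold higher in Eumyc, a log2 fold change of 1.02 ± 0.22 (SE) with a 95% interval of 0.53 to 1.52 (edgeR adjusted p = 0.00528). WT 3 exceeded the mean of WT 1 and 2 by 0.83 log2 units for Tnfrsf9, and by a median of 1.84 for 10 proliferation genes, all of which were higher in WT 3. Those 10 genes summed to 1730 to 2480 CPM in Eumyc and to 206, 185 and 513 CPM in WT 1, 2 and 3, and their part in the Tnfrsf9 difference was not tested. Without WT 3 the Tnfrsf9 log2 fold change was 1.35 (adjusted p = 0.000127).

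Tnfrsf4, which encodes OX40, was among the 3 receptors with the fewest counts in Eumyc and had 149, 259 and 242 counts in Eumyc and 140, 197 and 77 counts in WT. Scaled for depth these were 3.44, 4.01 and 3.64 CPM in Eumyc and 5.05, 5.33 and 4.61 CPM in WT. The groups did not overlap, and the gene fell to 0.738-fold in Eumyc, with a log2 fold change of -0.44 ± 0.15 (SE) and an edgeR adjusted p of 0.0447. This call was lost when any library but WT 3 was left out, with adjusted p = 0.140, 0.0715 and 0.123 without Eumyc 1, 2 and 3 and 0.107 and 0.126 without WT 1 and 2. It was also lost with DESeq2 (adjusted p = 0.0553) and when all libraries were thinned to the depth of the smallest (0.171).

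Tnfrsf18, which encodes GITR and lies 9551 bases from Tnfrsf4, had 22.2, 25.0 and 28.1 CPM in Eumyc and 28.9, 28.5 and 28.2 CPM in WT. The highest Eumyc library stood just under the lowest WT library. The log2 fold change of -0.18 ± 0.10 (SE) did not pass (adjusted p = 0.158), and its 95% interval ran from -0.41 to 0.04. Its exons share 414 bases with the antisense gene Gm16008. No source used here gives the strand setting of the counts, so its value is uncertain, since reads of the pair cannot be told apart without strand.

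Cd27, a costimulatory receptor whose loss marks later stages of mouse NK cell maturation, had 87.5, 96.7 and 87.5 CPM in Eumyc, against 113.7, 120.4 and 121.3 CPM in WT. All Eumyc libraries were lower than all WT libraries, with little spread in either group. The means were 90.5 ± 5.29 CPM in Eumyc and 118.5 ± 4.13 CPM in WT (SD, n = 3 each). Cd27 fell to 0.765-fold in Eumyc (log2 fold change -0.39 ± 0.06 SE, 95% interval -0.53 to -0.25, adjusted p = 0.00142). Its exons also share 129 bases with the microRNA gene Mir8113 on the same strand. Leaving out any 1 library gave -0.42 to -0.35 and kept the call each time.

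**Figure D2:**
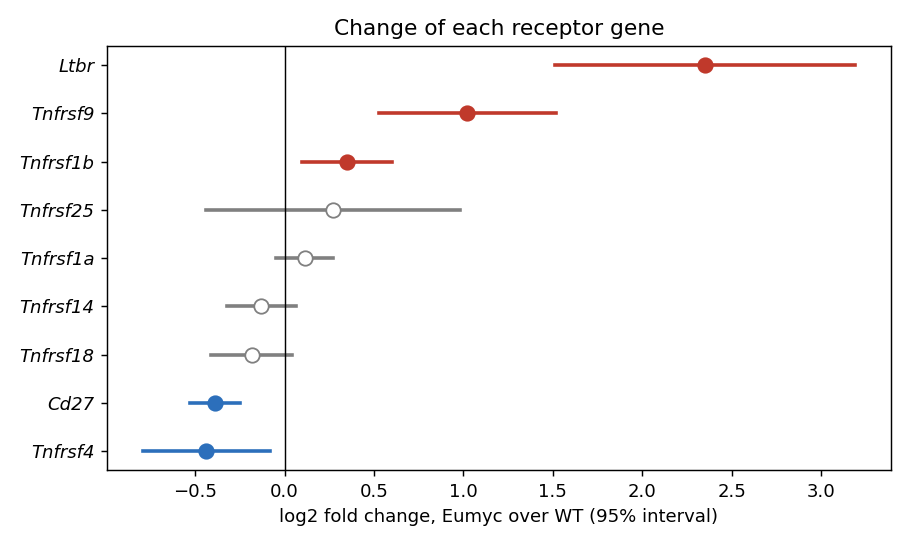
Log2 fold change of the 9 receptor genes, Eumyc over WT, with 95% intervals from edgeR; filled points passed an adjusted p of 0.05 and open points did not. Ltbr stands at 2.35, Tnfrsf9 at 1.02 and Tnfrsf1b at 0.35, while Cd27 and Tnfrsf4 stand at -0.39 and -0.44, and the widest interval that includes 0 is that of Tnfrsf25.

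Ltbr, the lymphotoxin beta receptor, was the lowest of the 9 in WT and changed most. It had 467, 346 and 498 counts in Eumyc and 28, 85 and 19 counts in WT. These were 10.8, 5.35 and 7.50 CPM in Eumyc and 1.01, 2.30 and 1.14 CPM in WT. Each Eumyc library was above each WT library, with Eumyc 1 highest in its group and WT 2 highest in its own. The level was 5.10-fold higher in Eumyc (log2 fold change 2.35 ± 0.37 SE, 95% interval 1.51 to 3.19, adjusted p = 0.00132). In absolute log2 fold change it stood above 95.3% of all tested genes. Ltbr was also the 1 receptor gene that passed a test against a 1.5-fold change, where the adjusted p of Tnfrsf9 was 0.0824.

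Monocyte and macrophage genes were among the marker lists that, like Ltbr, were higher in Eumyc. Of 9 such markers 6 were called higher in Eumyc and 0 lower, and the sum of the list ran from 1300 to 1750 CPM in Eumyc and from 888 to 1010 CPM in WT; none was at 0 in a whole group. Most of the WT sum was Ccr2, which NK cells also express. Without Ccr2, a choice made after seeing the values, the other 8 genes summed to 751, 328 and 412 CPM in Eumyc 1, 2 and 3 and to 97.9, 96.8 and 90.6 CPM in WT 1, 2 and 3. Csf1r, the macrophage growth factor receptor, stood at 344, 145 and 191 CPM in Eumyc and at 48.3, 45.2 and 33.0 CPM in WT. Within Eumyc, replicate 1 exceeded the mean of replicates 2 and 3 by 0.77 log2 units for Ltbr and by a median of 0.92 for the monocyte list, with 8 of 9 genes above. Within WT the 2 did not go together: Ltbr was highest in WT 2, at 2.30 CPM against 1.01 CPM in WT 1. The sum of the 8 genes was 96.8 CPM in WT 2 and 97.9 CPM in WT 1. Stromal and endothelial markers, of which 2 of 5 were tested and 1 was called higher, summed to 1.06 to 1.89 CPM in Eumyc and 0.137 to 0.218 CPM in WT, with no overlap. Within that list Pdgfrb, a receptor of pericytes and fibroblasts, had 41, 18 and 39 counts in Eumyc and 0 in each WT library (called higher), the collagen gene Col1a1 had 5, 14 and 9 counts in Eumyc and 0, 3 and 1 counts in WT (not tested), and the collagen gene Col3a1 was at 0 in all 6 libraries. Dendritic cell markers, 3 of 6 called higher, summed to 8.44 to 12.9 CPM in Eumyc and 9.36 to 13.0 CPM in WT, and most of that sum was Zbtb46. Without Zbtb46, also left out after its values were seen, the other 5 genes summed to 2.40 to 3.04 CPM in Eumyc and 0.438 to 0.670 CPM in WT. The part of any of these cells in the Ltbr difference was not tested. Without Eumyc 1 the Ltbr log2 fold change was 2.08 (adjusted p = 0.00348). In a bulk sample, more cells of a type and more RNA per cell cannot be told apart.

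Tnfrsf1b, the TNF receptor without a death domain, had the highest level per exon length of the 9. It had 436, 334 and 322 CPM in Eumyc, against 286, 280.3 and 290.2 CPM in WT. The groups did not overlap, and Eumyc 1 stood well above the other 5 libraries. Tnfrsf1b rose by a factor of 1.27 (log2 fold change 0.35 ± 0.11 SE, 95% interval 0.10 to 0.60, adjusted p = 0.0278). Without Eumyc 1, which was also highest in the monocyte genes, the log2 fold change was 0.21 (adjusted p = 0.0245). The call was lost without WT 1 (adjusted p = 0.0715) or WT 2 (0.0797).

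Tnfrsf1a, the death domain receptor for TNF, had 108.8, 94.9 and 100.2 CPM in Eumyc and 98.8, 93.6 and 88.4 CPM in WT. The groups overlapped, and the log2 fold change of 0.11 ± 0.07 (SE) did not pass (adjusted p = 0.213). Its 95% interval of -0.05 to 0.27 reached at most a 1.21-fold higher level.

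**Figure D3:**
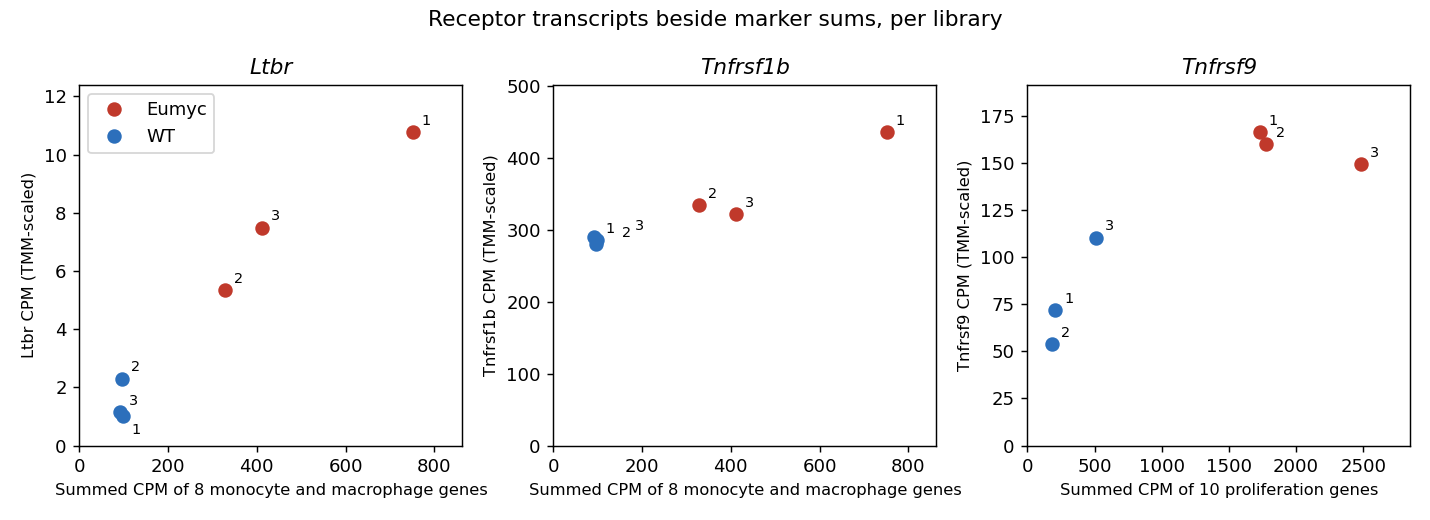
CPM (TMM-scaled) of Ltbr, Tnfrsf1b and Tnfrsf9 in each library against the summed CPM of 8 monocyte and macrophage genes (Ccr2 left out) or of 10 proliferation genes, with points numbered by replicate. For Ltbr and Tnfrsf1b, Eumyc 1 lies highest on both axes, at a marker sum of 751 CPM, and for Tnfrsf9, WT 3 is the WT library nearest to Eumyc on both axes.

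Tnfrsf14, which encodes HVEM, the receptor of the ligand LIGHT that also binds Btla and Cd160, had 36.2, 35.8 and 35.5 CPM in Eumyc and 35.5, 39.1 and 43.2 CPM in WT. The log2 fold change was -0.13 ± 0.08 (SE, adjusted p = 0.233, 95% interval -0.32 to 0.06), and the groups overlapped. Tnfrsf25, the death domain receptor DR3, had 6.74, 8.38 and 15.2 CPM in Eumyc and 6.49, 8.06 and 10.9 CPM in WT. Eumyc 3 was the highest library and WT 3 came next, and the difference between the group means was smaller than the SD of either group. Tnfrsf25 did not pass, at a log2 fold change of 0.27 ± 0.31 (SE) and an edgeR adjusted p of 0.498, and its sign turned without Eumyc 3, at -0.15 (adjusted p = 0.655). T cell marker genes, 3 of 9 called higher, summed to 135, 136 and 173 CPM in Eumyc 1, 2 and 3 and to 60.6, 57.9 and 67.2 CPM in WT 1, 2 and 3. Most of that difference lay in Cd3d and Cd3g: without these genes, a choice made after seeing the values, the other 7 summed to 26.9, 27.5 and 33.6 CPM in Eumyc and 28.6, 30.1 and 30.0 CPM in WT. The part of T cells in the Tnfrsf25 values was not tested.

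Levels of different receptors were compared per kilobase of merged exons, with lengths from the GENCODE M21 annotation. In Eumyc the order of the mean CPM per kilobase was Tnfrsf1b at 95.3, Tnfrsf9 at 58.2, Tnfrsf1a at 39.1, Cd27 at 38.9, Tnfrsf14 at 24.9, Tnfrsf18 at 16.5, Tnfrsf25 at 4.44, Ltbr at 3.35 and Tnfrsf4 at 2.71. In WT the order was Tnfrsf1b at 74.8, Cd27 at 50.9, Tnfrsf1a at 36.1, Tnfrsf9 at 28.9, Tnfrsf14 at 27.3, Tnfrsf18 at 18.7, Tnfrsf25 at 3.73, Tnfrsf4 at 3.66 and Ltbr at 0.630. In Eumyc the neighbours Tnfrsf1a and Cd27 overlapped over their 3 libraries, and so did Tnfrsf25 with Ltbr and Ltbr with Tnfrsf4. In WT the overlapping neighbours were Tnfrsf1a with Tnfrsf9, Tnfrsf9 with Tnfrsf14, and Tnfrsf25 with Tnfrsf4. Tnfrsf9 thus stood in the second place in Eumyc with a range of its own, 54.8 to 61.1 CPM per kilobase, and in the fourth place in WT, where its range of 19.7 to 40.5 held the whole ranges of both neighbours, so that its place among them is not settled.

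**Figure D4:**
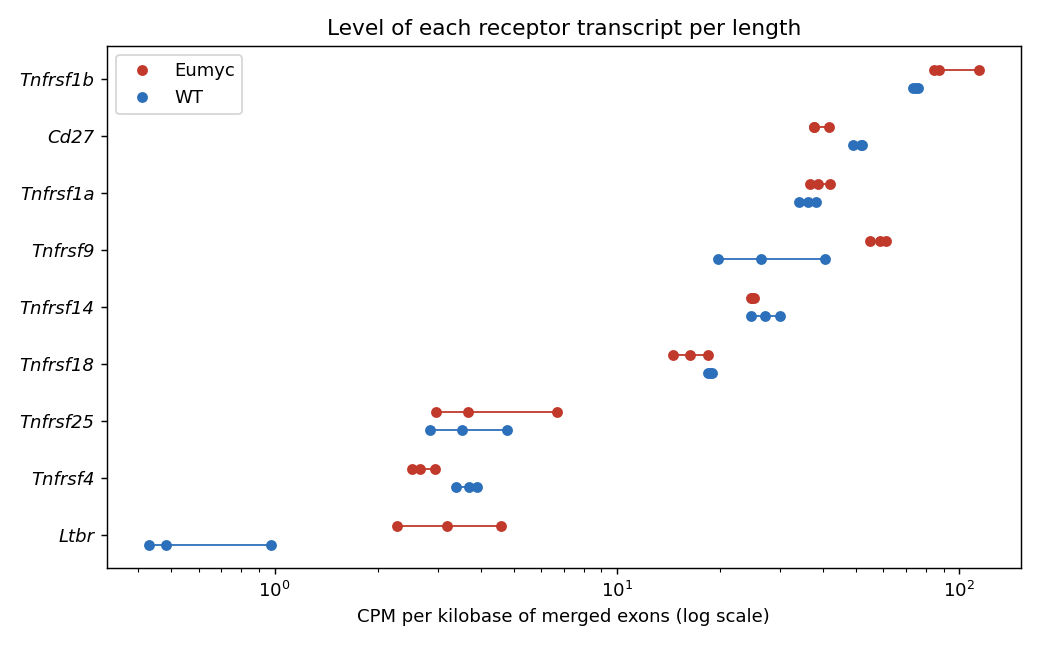
Level of each receptor transcript in CPM per kilobase of merged exons on a log axis, Eumyc above WT in each row; points are libraries and lines join the lowest and highest of 3. Tnfrsf1b is highest in both groups, at means of 95.3 in Eumyc and 74.8 in WT, and Ltbr moves from the bottom of the WT order to the level of Tnfrsf25 and Tnfrsf4 in Eumyc.

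Among 11 genes for the ligands and other partners of these receptors, 8 were tested, 3 rose and none fell. Over all tested genes 48.8% were called, 25.7% higher and 23.1% lower. Tnfsf4, the ligand of OX40, had 3.28, 2.91 and 2.56 CPM in Eumyc and 0.613, 1.05 and 0.240 CPM in WT (log2 fold change 2.08 ± 0.39 SE, adjusted p = 0.00298). Its WT values rest on few counts, 17, 39 and 4 in WT 1, 2 and 3. Without WT 2 its log2 fold change was 2.68 (adjusted p = 0.00352). Cd160, a partner of HVEM, averaged 209 ± 22.1 CPM in Eumyc and 92.2 ± 11.7 CPM in WT (SD, n = 3 each), with no overlap of the groups (log2 fold change 1.18 ± 0.10 SE, edgeR adjusted p = 0.000192). Btla, an inhibitory partner of HVEM, had 2.03, 1.76 and 2.69 CPM in Eumyc and 0.866, 1.16 and 1.20 CPM in WT (1.01 ± 0.27, adjusted p = 0.0144), and lost its call without Eumyc 3 (adjusted p = 0.0624) or WT 1 (0.0552). Thus both partners of HVEM other than its TNF family ligands were higher, while HVEM itself did not pass.

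Tnfsf9, the ligand of 4-1BB, had 3.55, 4.50 and 3.67 CPM in Eumyc and 4.26, 3.95 and 5.69 CPM in WT, and did not pass (adjusted p = 0.362). The TNF gene Tnf averaged 9.33 ± 1.98 CPM in Eumyc and 6.88 ± 1.77 CPM in WT (SD, n = 3 each, edgeR adjusted p = 0.118). The lymphotoxin gene Ltb averaged 107 ± 12.2 CPM in Eumyc and 94.8 ± 18.7 CPM in WT (adjusted p = 0.310), and Lta averaged 2.20 ± 0.503 CPM in Eumyc and 2.33 ± 1.23 CPM in WT (adjusted p = 0.941). Tnfsf14, which encodes LIGHT, averaged 58.2 ± 5.94 CPM in Eumyc and 68.5 ± 4.88 CPM in WT (adjusted p = 0.0600). Cd70, the ligand of Cd27, had 1, 5 and 8 counts in Eumyc and 0 in each WT library, where 0 counts allow up to 0.109, 0.0821 and 0.183 CPM in WT 1, 2 and 3. Tnfsf18, the GITR ligand, had at most 7 counts and Tnfsf15, the DR3 ligand, at most 6 in any library, and none of these 3 was tested. Without WT 3 the count of partner genes that rose was 5.

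Of 19 other TNF receptor family genes 14 were tested, of which 7 rose and 4 fell, beside 48.8% of all tested genes called. Their median log2 fold change was 0.96, but the 19 genes summed to 141 to 148 CPM in Eumyc and 157 to 161 CPM in WT. The genes that fell were Tnfrsf22 (0.362-fold, edgeR adjusted p = 0.000237), Tnfrsf26 (0.508-fold, 0.000698), Tnfrsf12a (0.546-fold, 0.00888) and Relt (0.847-fold, 0.00738). Described next are the 3 called genes with the largest absolute log2 fold change and at least 1 CPM in the higher group. Tnfrsf21, a death domain receptor, had 24.6, 17.1 and 20.9 CPM in Eumyc and 4.33, 3.25 and 6.59 CPM in WT (log2 fold change 2.18 ± 0.25 SE, adjusted p = 0.000400). Tnfrsf8, which encodes the activation marker CD30, had 3.12, 1.69 and 1.78 CPM in Eumyc and 0.361, 0.379 and 0.419 CPM in WT (5.66-fold, adjusted p = 0.000910). Eumyc 1 was the highest library for both Tnfrsf21 and Tnfrsf8. Without Eumyc 1 the log2 fold change was 2.06 for Tnfrsf21 and 2.18 for Tnfrsf8, with both calls kept. Cd40, a receptor of B cells and myeloid cells, had 2.95, 0.526 and 0.632 CPM in Eumyc and 0.108, 0 and 0.0599 CPM in WT, where these were 3, 0 and 1 counts (adjusted p = 0.00897), with Eumyc 1 highest as for the monocyte genes. Its fitted log2 fold change of 4.66 rests on those few WT counts and was 3.46 without Eumyc 1, 5.95 without WT 1 and 3.87 without WT 2, with the call kept each time. Markers of B cells summed to 14.8 to 18.3 CPM in Eumyc and 4.39 to 5.55 CPM in WT, and 7 of 8 were called higher; their part in the Cd40 difference was not tested.

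Adaptor proteins carry signals from these receptors into the cell. Of 19 genes for TRAF adaptors, death domain adaptors and ubiquitin enzymes 4 rose, 4 fell and 11 did not pass, with a median log2 fold change of 0.03. Over all tested genes 48.8% were called. Together the 19 genes summed to 2180 to 2280 CPM in Eumyc and 2340 to 2490 CPM in WT. The 4 that fell were Sharpin (log2 fold change -0.33), Rnf31 (-0.31), Birc2 (-0.30) and Traf6 (-0.29), at edgeR adjusted p of 0.00158 to 0.00445. Siva1, which encodes a protein that binds the tail of CD27, had 21.2, 19.0 and 25.6 CPM in Eumyc and 9.13, 9.44 and 14.5 CPM in WT (log2 fold change 1.01 ± 0.19 SE, adjusted p = 0.00342). Fadd, the adaptor of death receptors, rose by 0.43 ± 0.12 on the log2 scale (adjusted p = 0.0162), and Tab1, a partner of the kinase TAK1, by 0.40 ± 0.08 (adjusted p = 0.00502). Fadd lost its call without Eumyc 3 (adjusted p = 0.0617), WT 1 (0.0575) or WT 2 (0.0544).

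Of 12 genes for NF-kB subunits, inhibitors and kinases 1 rose, 1 fell and 10 did not pass, with a median log2 fold change of 0.09. Over all tested genes 48.8% were called. Nfkb1, the p105 precursor subunit, had 440, 423 and 390 CPM in Eumyc and 367, 361 and 366 CPM in WT (0.19 ± 0.06 SE, adjusted p = 0.0263). Ikbkb, the kinase that releases NF-kB from its inhibitors, had 206, 195 and 183 CPM in Eumyc and 225, 237 and 221 CPM in WT (-0.23 ± 0.06, adjusted p = 0.0150). The Nfkb1 call was lost without Eumyc 1 (adjusted p = 0.0642), Eumyc 2 (0.0532), WT 1 (0.0529) or WT 2 (0.0618), and that of Ikbkb without Eumyc 3 (0.0624) or WT 2 (0.0608). Without WT 3, 4 genes of this list were higher and 2 lower.

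The 9 genes lie on 2 chromosomes in the deposited coordinates (GRCm38), 6 on chromosome 4, with gaps of up to 5667691 bases, and 3 on chromosome 6. On chromosome 6, Cd27 spans 125232622 to 125237010, Ltbr 125306571 to 125313885 and Tnfrsf1a 125349362 to 125362484. Cd27 and Ltbr, 69560 bases apart, were called in opposite directions, and Tnfrsf1a, 35476 bases from Ltbr, did not pass. On chromosome 4, Tnfrsf1b spans 145213463 to 145246870, Tnfrsf9 150914562 to 150946102, Tnfrsf25 152115934 to 152120119, Tnfrsf14 154922210 to 154928563, Tnfrsf4 156013843 to 156016612 and Tnfrsf18 156026164 to 156028895. These spans cover whole genes, introns included, and each gene is annotated as protein coding.

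For each receptor, the pattern over the 6 libraries was compared with that of 8826 protein-coding genes, as the root-mean-square difference of log2 CPM after centring each gene on its own mean. The genes most like Tnfrsf9 were Capg, at 0.0905 log2 units, and F2rl2, at 0.104. Those most like Ltbr were Pla2g7 at 0.268 and Slc4a1 at 0.290. The difference is not scaled to the size of a gene's change or its counting noise. The larger values for Ltbr therefore do not show a rarer pattern. For Cd27 they were Sppl2b at 0.0230 and Mtfr1l at 0.0273, and for Tnfrsf1b Ube2f at 0.0449 and Atp6v1b2 at 0.0497. For Tnfrsf4 they were Hinfp at 0.0301 and Wwp1 at 0.0334, for Tnfrsf18 Zfp146 at 0.0359 and Mphosph9 at 0.0362, and for Tnfrsf1a Ndel1 at 0.0145 and Irf2 at 0.0237. For Tnfrsf14 they were Zcrb1 at 0.0303 and Aars2 at 0.0309, and for Tnfrsf25 Psd2 at 0.113 and Acpp at 0.116. Among the receptors themselves Cd27 and Tnfrsf4 were the closest pair, at 0.0804.

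The libraries held 44456157 to 66615602 counts in Eumyc and 16407611 to 36534191 in WT. The 10 NK cell markers were all present, summing to 10500 to 11200 CPM in Eumyc and 12100 to 12300 CPM in WT, with 1 called higher and 6 lower. Those 6 ran from Klrd1 at 0.615-fold to Ncr1 at 0.8235-fold, a range that holds the 0.765-fold level of Cd27. Regulatory T cells carry OX40, GITR and 4-1BB at high levels, and their 5 markers summed to 0.382 to 1.34 CPM in Eumyc and 0.109 to 0.914 CPM in WT. Of these 5 only Foxp3 was abundant enough to be tested, and it did not pass (adjusted p = 0.615). Neutrophil markers summed to 33.7 to 46.7 CPM in Eumyc and 0.164 to 2.80 CPM in WT. Erythroid markers, 4 of 4 called higher, summed to 41.7 to 47.2 CPM in Eumyc and 9.93 to 28.3 CPM in WT.

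In the authors' deposited table, which lists all 9 receptor genes, the same 5 were under an adjusted p of 0.05 and moved the same way. That table gave Ltbr a log2 fold change of 1.86, Tnfrsf9 0.86, Tnfrsf1b 0.33, Cd27 -0.39 and Tnfrsf4 -0.42, the last with an adjusted p of 0.0499. Here Ltbr had 2.35 with edgeR and 2.38 with DESeq2 1.42.0, and Tnfrsf9 had 1.02 with both. The settings of the authors' fit have no source here, so the sizes may not be on the same scale, and the cause was not tested.

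**Figure D5:**
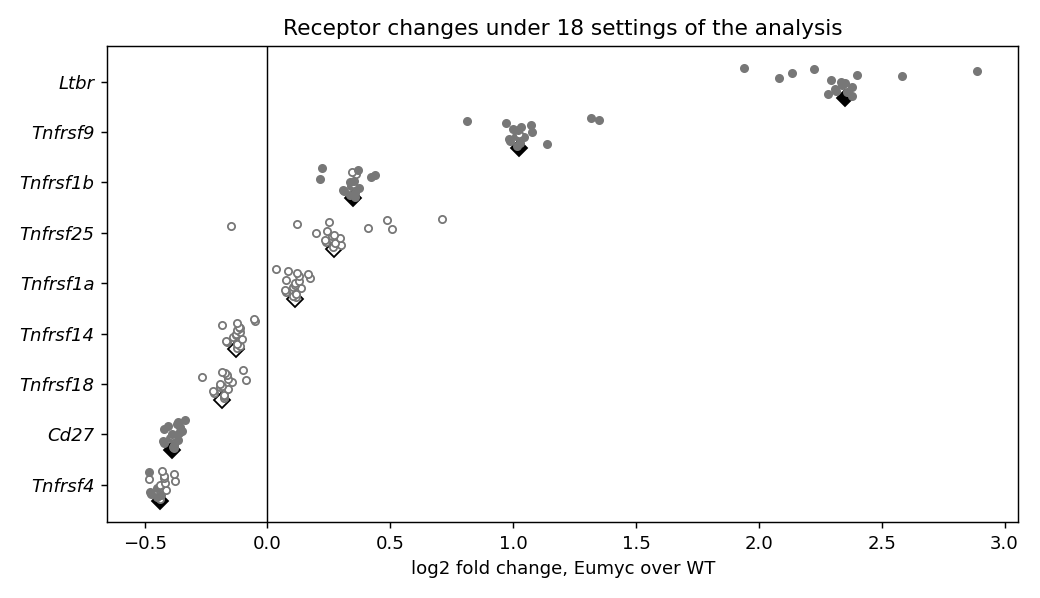
Log2 fold change of each receptor gene, Eumyc over WT, as reported (diamonds) and under 17 other settings (circles); filled symbols passed an adjusted p of 0.05. Ltbr is filled throughout, Tnfrsf4 mixes filled and open circles, and Tnfrsf25 has 1 circle below 0, at -0.15 without Eumyc 3.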

How the data were processed

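The authors deposited whole-number counts per gene for 6 libraries. They also deposited their own Eumyc over WT comparison, which holds log2 fold changes, p-values and, as unused scores, a mean and a test statistic, per the file headers. The submitters' processing notes name STAR (2.5.2), HTSeq (0.6.1), DESeq2 (1.10.1), mm10 and GRCm38, without their roles. Strand setting and annotation release have no source here, so reads in an overlap of genes may have been counted for either gene or for neither.

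edgeR 4.0.16 (R 4.3.3) tested genes that passed filterByExpr with a minimum count of 10, after TMM scaling, with group as the only term and a two-sided quasi-likelihood test. P-values were adjusted by Benjamini-Hochberg over all tested genes at a threshold of 0.05. Standard errors come from the F statistic, and ± after a CPM mean is the SD. Alternatives included DESeq2 1.42.0, limma 3.58.1, other scalings and filters, equal depth, a replicate block and leaving out libraries. The fitting code was checked on simulated counts. Sums of marker lists use CPM without TMM. Every 2 libraries of a group differed by more than sampling noise (lowest chi-square per degree of freedom 8.32). Total counts ran from 44456157 to 66615602 in Eumyc and from 16407611 to 36534191 in WT, and limits for 0 counts (3 counts) cover counting error only.

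The receptors and gene lists were chosen with earlier results of these data known. Named genes were all 9 receptors, up to 3 called genes of each partner list with the largest absolute log2 fold change and a mean of 1 CPM or more in the group where it was higher, and the 2 protein-coding genes nearest to each receptor in pattern with at least 10 CPM in a group. The other family genes and adaptor genes that fell are named as well. The 6 motifs were chosen after the promoters had been searched, a search that also took in ETS, T-box, CRE, PU.1, NFAT and another STAT form. RefSeq promoters are of GRCm38.p6.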

Additional observations from a re-analysis of the deposited data

How the results depend on the processing

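The directions of 8 receptor genes held under all 17 other settings, the exception being Tnfrsf25 (log2 fold change -0.15 without Eumyc 3, and -0.15 to 0.51 over the fits without 1 library). Ltbr passed in all 17, at 1.94 to 2.89, and Tnfrsf9 and Cd27 in all but the test against a 1.5-fold change. Tnfrsf1b passed in 14 and Tnfrsf4 in 6 of 17; the cause was not tested. Against a 1.5-fold change 1260 genes were higher and 568 lower, with 1 receptor higher and 0 lower, 2 other family genes lower, and 0 adaptor and 0 NF-kB genes in either direction, since this test asks for a larger change. The count of receptors that fell was 1 with DESeq2, without a filter, at equal depth and with a replicate block. A filter of 3 CPM in 3 libraries left 1 partner gene and 3 other family genes higher, as fewer genes were tested. The NF-kB genes higher were 2 with DESeq2, 2 without a filter and 0 with upper quartile scaling, which also gave 7 adaptor genes lower. Partner genes lower were 1 with total counts, upper quartile scaling and the block. Leaving out 1 library gave 3252 to 4284 genes higher and 2616 to 3623 lower, 2 to 3 receptors higher and 1 to 2 lower, 2 to 5 partner genes higher and 0 to 1 lower, 5 to 8 other family genes higher and 4 to 5 lower, 3 to 4 adaptor genes higher and 4 to 5 lower, and 0 to 4 NF-kB genes higher and 0 to 2 lower. Without both Eumyc 1 and WT 3, chosen after seeing the data, 3 receptors were higher, 1 lower and 2 NF-kB genes higher. Scaling by total counts put 47.8% of called genes higher, against 52.6% with TMM, and moved the median of all genes by less than 0.1.

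Deviations from the group means correlated at 0.0292, 0.0919 and 0.0954 between Eumyc and WT libraries of the same number. Between Eumyc and WT libraries of different numbers they correlated at -0.12 to 0.0343, the highest being WT 1 with Eumyc 2. The labels give only the number, and whether it marks a batch or a pairing was not tested. With the replicate block 4176 genes were higher and 3684 lower, against 3973 and 3576 without it. The depth of WT limits the low receptors most: Ltbr had 19 counts in WT 3 and Tnfrsf4 77.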
